A study of Homo sapiens with 9 samples.

Results

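MET and AXL, a pair of receptor tyrosine kinases reported as targets of the microRNA miR-199a-3p, were followed across 9 whole-transcript arrays of WM266-4 melanoma cells. The pair was chosen by gene symbol, for published reports of this targeting, and makes up 2 of the 14812 genes that the array annotation names. WM266-4 is an established human line from a melanoma metastasis, here carrying GFP. In every group the cells were lipofected and total RNA was collected 48 h later. The groups were the miR-199a-3p mimic at 0.5 nM (n = 3), the mimic at 0.25 nM (n = 3) and a control microRNA at 0.5 nM (n = 3), so the lower dose has no control of its own dose. The comparisons ask whether either receptor's transcript level differs between mimic-transfected and control-transfected cells, and whether the doses differ.

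A microRNA guides an Argonaute complex to messenger RNAs that pair with its seed, the short run near its 5′ end, and lowers their stability or translation. MET is the receptor of hepatocyte growth factor, a ligand that drives motility, branching and survival. AXL belongs with TYRO3 and MERTK to the TAM receptors, which bind the vitamin K-dependent ligands GAS6 and PROS1. In melanoma, MET is a known target gene of the lineage factor MITF, while high AXL marks cells of low MITF and low differentiation.

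The mature sequence of the transfected microRNA is shown because its seed defines the sites it can pair with, beside the other human microRNAs that carry the same seed. Capitals mark bases 2 to 8, the seed CAGUAGU. Sequences are from RefSeq (GRCh38.p14), where 4 of 2545 mature entries have this seed, under 3 names.
hsa-miR-199a-3p: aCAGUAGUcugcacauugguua
hsa-miR-199b-3p: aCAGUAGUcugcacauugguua
hsa-miR-3129-5p: gCAGUAGUguagagauugguuu
The first is made from 2 genes, MIR199A1 on chromosome 19 and MIR199A2 on chromosome 1, and is identical to the product of MIR199B on chromosome 9. A transcript site that pairs with the whole seed reads ACUACUG. Transcript sequences of MET and AXL were not used here, so sites in them were not counted.

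MET lies on chromosome 7 (GRCh38.p14 chr7:116672196-116798377) and AXL on chromosome 19 (chr19:41219223-41261766), and each had 1 row on the array. The 250 bases upstream of their annotated starts (RefSeq, plus strand) are shown because both are known to be driven by Sp-family factors, whose own transcripts were also measured. Capitals mark each GGGCGG, the GC box, which 45% of 35116 human promoter windows of 300 bases hold on either strand.
MET, chr7:116671946-116672195: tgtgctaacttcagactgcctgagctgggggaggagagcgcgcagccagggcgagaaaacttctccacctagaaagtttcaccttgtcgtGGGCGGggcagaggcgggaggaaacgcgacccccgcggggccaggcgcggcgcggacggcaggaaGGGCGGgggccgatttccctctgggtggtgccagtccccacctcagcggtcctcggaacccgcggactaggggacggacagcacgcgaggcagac
AXL, chr19:41218973-41219222: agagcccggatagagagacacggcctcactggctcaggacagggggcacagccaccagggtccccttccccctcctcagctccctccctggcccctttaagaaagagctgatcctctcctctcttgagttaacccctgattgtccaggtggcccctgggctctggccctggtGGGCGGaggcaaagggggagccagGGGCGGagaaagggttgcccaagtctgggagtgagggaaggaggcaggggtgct
Both stretches hold 2 GC boxes. A further annotated AXL start, with upstream bases chr19:41226505-41226754, has 0 GC boxes and is not printed. The MET window also holds 1 CACGTG, the E-box that MITF binds, starting 3 bases downstream of the annotated start. That motif is in 7.26% of the windows, and neither annotated AXL window has it. CATGTG, a related E-box form, is in 11.1% of the windows, in the window of the further AXL start and not in that of MET. TGANTCA, the AP-1 motif, is in 7.71% of the windows and in none of the MET and AXL windows searched.

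Values are log2 intensities, with the arrays shifted to one median, and 1 unit is a doubling. Without the shift the median gene lay 0.10 above control at 0.5 nM and 0.14 above it at 0.25 nM, and MET changed by -0.24 and -0.49 and AXL by -0.21 and -0.22, so changes are given relative to the median gene. Deposited values tie exactly on all 3 control arrays in 47.2% of genes and on all 3 arrays of the 0.5 nM group in 46.6%. Over 27 pairs of arrays from different groups, 0 rows held an equal value. Ties within groups alone are the form that values take when groups are summarised apart, so the spread between arrays of a group can understate the error of a comparison, and summarisation and treatment cannot be told apart. The labels call the replicates biological triplicates and say nothing more of separate cultures. Of the melanocytic markers, 7 of 7 measured (MITF, SOX10, PMEL, MLANA, TYR, TYRP1 and S100B) had control signals above the median gene, 6.25, as did 4 of 5 markers of the undifferentiated state (NGFR, SOX9, FOSL1 and TNC, without EGFR) and 0 of 6 keratinocyte and epithelial markers. The mean level of 4 such epithelial genes with complete values was 4.24 to 4.25 at 0.5 nM, 4.46 to 4.49 at 0.25 nM and 4.49 to 4.58 in control, and its part in the results was not tested. None of the 2 fibroblast, 1 leukocyte and 1 endothelial markers measured reached the median gene.

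MET was lowest after 0.25 nM mimic, intermediate after 0.5 nM and highest after the control microRNA, in each of the 3 replicates. At 0.5 nM its arrays read 9.30, 8.64 and 8.37 for replicates 1, 2 and 3. At 0.25 nM they read 8.82, 8.26 and 8.26, and with the control microRNA 9.56, 8.85 and 8.88. Replicate 1 was the high array of every group. The 0.5 nM arrays overlapped the control arrays. All 3 arrays at 0.25 nM lay below all 3 controls, by a margin as small as that between 8.82 and 8.85. In the deposited values, before the shift, this separation was absent. There replicate 1 at 0.25 nM read 8.88, above control replicates 2 and 3 at 8.77 and 8.80. After the shift the means were 8.77 ± 0.48 at 0.5 nM, 8.45 ± 0.32 at 0.25 nM and 9.10 ± 0.40 in control (SD, n = 3 each). Replicates 2 and 3 at 0.25 nM tied exactly as deposited, so the SD of 0.32 rests on 2 distinct values.

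**Figure D1:**
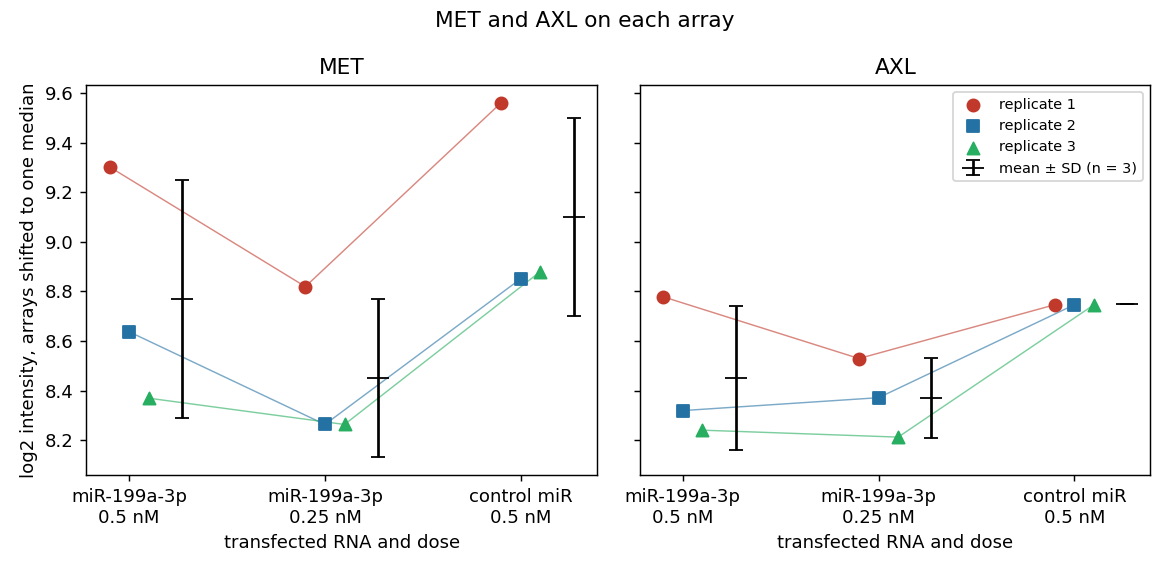
Log2 intensity of MET (left) and AXL (right) on each of the 9 arrays, shifted to one median, by transfected RNA and dose. Colours and markers give the replicate number, thin lines join arrays of the same number, and black bars are the mean ± SD of 3 arrays. MET replicate 1 sits above replicates 2 and 3 in every group, while the 3 AXL control arrays coincide at 8.75.

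AXL was lower than control on 5 of the 6 mimic arrays. At 0.5 nM its arrays read 8.78, 8.32 and 8.24 for replicates 1, 2 and 3. At 0.25 nM they read 8.53, 8.37 and 8.21, against 8.75 on all 3 control arrays, which had 1 deposited value among them. Replicate 1 at 0.5 nM was the only mimic array above control. The 0.25 nM arrays did not overlap the control, and the 0.5 nM arrays did. The means were 8.45 ± 0.29 at 0.5 nM and 8.37 ± 0.16 at 0.25 nM, against 8.75 in control, whose SD of 0 comes from the tie and is no measure of its precision. In order of level, AXL was lowest at 0.25 nM and highest in control, and the difference between the doses was smaller than the spread within either.

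Compared within a replicate number, MET was below its control in all 6 comparisons. The 0.5 nM array differed from the control of the same number by -0.26, -0.21 and -0.51, and the 0.25 nM array by -0.74, -0.59 and -0.62. Every MET difference was larger in size at 0.25 nM than at 0.5 nM. Of 11977 genes with a value on all arrays, 25.2% likewise lay below control at both doses in all 3 replicates, and 11.0% had the order 0.25 nM lowest and control highest in all 3. For AXL the differences were 0.03, -0.43 and -0.51 at 0.5 nM and -0.22, -0.37 and -0.53 at 0.25 nM. Replicate 1 showed the smallest AXL difference at both doses, and the AXL order of the doses was not the same in each replicate, with 0.5 nM minus 0.25 nM at 0.25, -0.05 and 0.03.

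**Figure D2:**
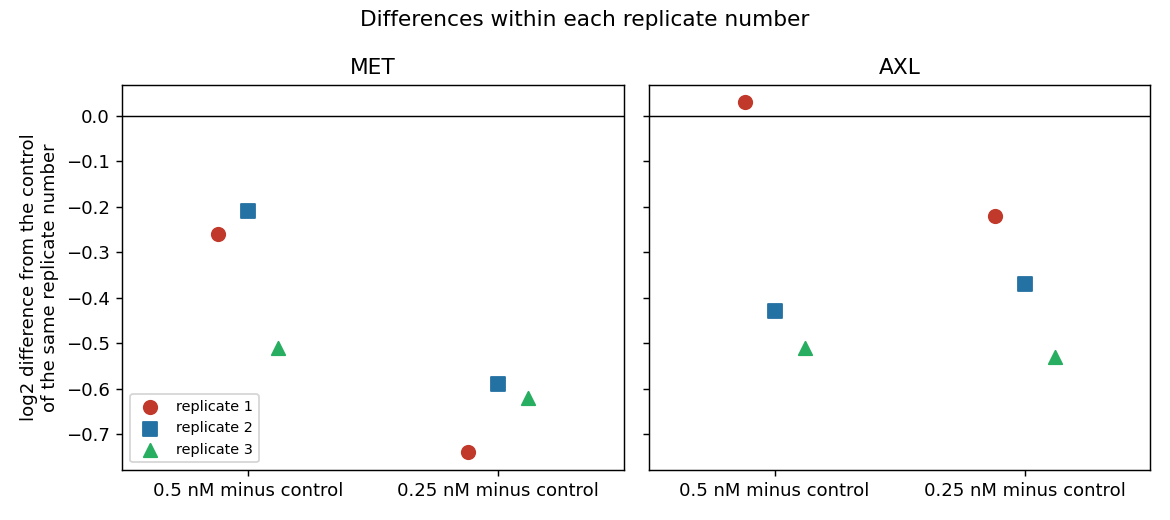
Log2 difference of each mimic array from the control array of the same replicate number, for MET (left) and AXL (right), with 0.5 nM left of 0.25 nM in each panel. Each point is 1 replicate and the line marks no difference. All 6 MET points lie between -0.74 and -0.21, and the AXL points lie between -0.53 and 0.03.

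The MET array of replicate 1 stood apart in each group. It exceeded the mean of replicates 2 and 3 by 0.80 at 0.5 nM, 0.56 at 0.25 nM and 0.70 in control. Of genes with complete values, 18.0% were higher in replicate 1 in all 3 groups, and 30 genes (0.25%) were so by over 0.5 in each, MET among them. AXL exceeded the mean of replicates 2 and 3 by 0.50 at 0.5 nM and 0.24 at 0.25 nM, with a difference of 0 in control. What sets replicate 1 apart is not given in the labels and was not tested.

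Taking both doses against control over all genes, AXL changed by -0.34 ± 0.13 (SE; limma adjusted p = 0.0483) and MET by -0.49 ± 0.27 (limma adjusted p = 0.150). AXL thus passed the threshold of 0.05 by a narrow margin and MET did not. In this fit 64.0% of all genes passed, so 1 of 2 is no more than the share of all genes. The AXL call was lost on leaving out any 1 array other than replicate 1 of either dose (limma adjusted p = 0.0799 to 0.112 for those 7 arrays). When the replicate number was added to the model as a block, since same-numbered arrays deviated together, MET passed at an SE of 0.068 (limma adjusted p = 0.00201), as did 67.0% of all genes. That pairing is plain for replicate 1 alone. Arrays numbered 2 and 3 also deviated together (r = 0.16 to 0.36), and 4 of 9 arrays were closest to their own number. Treating each group mean as 1 unit, where 0.122% of genes passed, neither MET (limma adjusted p = 0.335) nor AXL (limma adjusted p = 0.633) passed. That fit takes the 2 doses as repeats of 1 condition, so its error comes from the difference between the doses. Unlike the main fit, it lets the expected spread vary with signal level.

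At 0.5 nM the MET change was -0.33 ± 0.31 (95% interval -1.05 to 0.40; limma adjusted p = 0.391), or -20.3% on the linear scale. With the replicate block its SE was 0.079 and it passed (limma adjusted p = 0.0156). The AXL change at 0.5 nM was -0.30 ± 0.14 (95% interval -0.64 to 0.04; limma adjusted p = 0.111), or -18.8%, and it did not pass with the block either (limma adjusted p = 0.0595). All told, 63.0% of genes passed at 0.5 nM, and 65.6% with the block.

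At 0.25 nM the MET change was -0.65 ± 0.31 (95% interval -1.37 to 0.08; limma adjusted p = 0.104), or -36.2%. The AXL change was -0.38 ± 0.14 (95% interval -0.72 to -0.03; limma adjusted p = 0.0550), or -22.9%. With the replicate block both passed, MET with limma adjusted p = 0.00115 and AXL with limma adjusted p = 0.0292. Of all genes 64.1% passed at this dose, and 67.4% with the block.

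Between the doses, MET lay 0.32 ± 0.31 higher at 0.5 nM than at 0.25 nM (limma adjusted p = 0.402), a difference that passed with the replicate block (SE 0.079, limma adjusted p = 0.0171). AXL differed between the doses by 0.08 ± 0.14 (95% interval -0.27 to 0.42; limma adjusted p = 0.679), and by the same amount with limma adjusted p = 0.571 under the block. The background here was 62.2% of genes, and 65.3% with the block. Both doses share the same 3 control arrays, so their changes are given side by side and not as independent evidence.

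**Figure D3:**
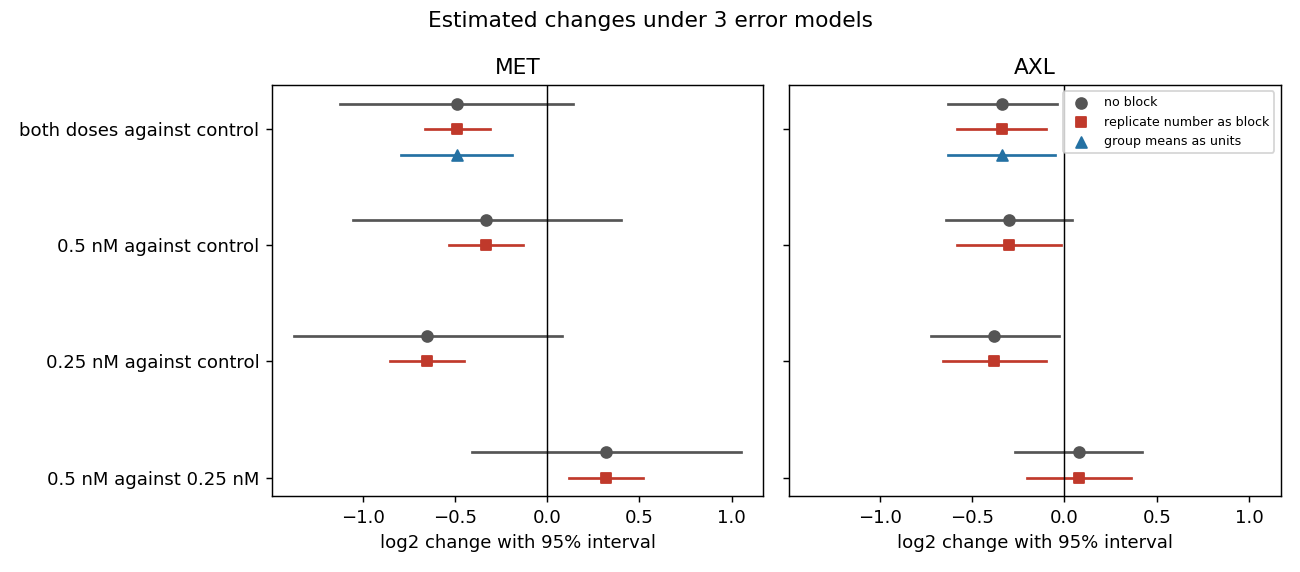
Estimated log2 change of MET (left) and AXL (right) in the 4 comparisons, with 95% intervals, from limma without a block, with replicate number blocked, and with group means as units (both doses only). The MET interval for both doses spans -1.12 to 0.14 without the block and -0.66 to -0.31 with it, around the same estimate of -0.49.

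An exact permutation test over the arrays made the same comparison for each gene alone. Its two-sided p was the one-sided p doubled, so the smallest p allowed is doubled too. Over all 84 ways to set 3 arrays apart as controls, the difference of -0.49 for MET gave exact p = 0.119 and that of -0.34 for AXL gave exact p = 0.0952, where the smallest p the design allows is 0.0238. With labels exchanged only within a replicate number, MET gave exact p = 0.0741, the smallest that these 27 arrangements allow, and AXL gave exact p = 0.148. With the doubling, that test cannot reach 0.05.

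On the ligand side of MET, HGF, its ligand, had low signal (mean level 3.65). After the shift of arrays it changed in opposite directions, by 0.46 ± 0.011 at 0.5 nM (SE; limma adjusted p = 2.60e-08) and by -0.07 ± 0.011 at 0.25 nM (limma adjusted p = 0.00114). ST14, or matriptase, a membrane protease able to activate pro-HGF, did likewise, at 0.24 and -0.18 (limma adjusted p = 0.00161 and 0.00708). The HGF change of -0.07 is smaller in size than the 0.14 by which the median gene lay above control before the shift. Its direction at 0.25 nM therefore rests on the shift. With no shift HGF lay at 0.32 for both doses, in place of 0.20, and ST14 at 0.15, in place of 0.03 (limma adjusted p = 1.66e-09 and 0.00506 with no shift). The list of MET ligand, activation and co-receptor genes held 7 measured members, of which 1 was higher and 1 lower for both doses against control (2 and 0 with no shift of arrays). Of all genes 31.8% were higher and 32.1% lower, or 50.3% and 17.1% with no shift. The lower one was PLXNB1, a plexin that associates with MET, at -0.18 ± 0.055 (limma adjusted p = 0.0219). CD44, whose variant forms act as MET co-receptors, joined it under the replicate block at -0.07 (limma adjusted p = 0.0113, against 0.280 without). That is a mean of opposite directions, with CD44 at -0.19 at 0.5 nM and 0.05 at 0.25 nM (limma adjusted p = 0.0304 and 0.545 without the block). NRP1, a further co-receptor, lay at 0.13 ± 0.27 (limma adjusted p = 0.709). The median change of the list was -0.07, beside -0.01 over all genes, and none of the 7 passed with group means as units.

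The relatives and ligands of AXL were mixed in direction after the shift of arrays: MERTK was lower, and TYRO3, GAS6 and PROS1 were higher. TYRO3 rose by 0.36 at 0.5 nM and by 0.30 at 0.25 nM (limma adjusted p = 7.02e-07 and 2.15e-06), with means of 7.19 at 0.5 nM and 6.82 in control. MERTK, which had low signal (mean level 4.95), changed by -0.47 and by -0.05 (limma adjusted p = 2.32e-08 and 0.00449). The change of -0.05 at 0.25 nM is smaller in size than the 0.14 by which the median gene lay above control before the shift. Its direction at that dose therefore rests on the shift, unlike that of AXL, which lay at -0.22 without it. With no shift MERTK lay at -0.14 for both doses (limma adjusted p = 6.26e-07), in place of -0.26. GAS6, the ligand that binds all the TAM receptors, rose by 0.29 and 0.21 (limma adjusted p = 8.96e-08 and 5.81e-07). PROS1, which binds TYRO3 and MERTK, rose by 0.08 at 0.5 nM and 0.17 at 0.25 nM (limma adjusted p = 0.00797 and 0.000167). Of 5 measured genes in this list 3 were higher and 1 lower for both doses, beside 31.8% and 32.1% of all genes, with a median change of 0.13. None passed with group means as units, where GAS6 and TYRO3 had limma adjusted p = 0.938 and 0.842.

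MST1R, or RON, the closest relative of MET, changed by -0.31 at 0.5 nM and -0.33 at 0.25 nM (limma adjusted p = 6.31e-06 and 3.92e-06), at a mean level of 5.90. Among 48 measured receptor tyrosine kinases, 13 were higher and 16 lower for both doses, close to the 31.8% and 32.1% of all genes, and the median change was -0.04. With no shift of arrays the split turned to 24 and 11, where 50.3% of all genes were higher and 17.1% lower. By estimate MET was the 2nd lowest of the 48 and AXL the 5th, with FLT1, a VEGF receptor, lowest at -0.52 ± 0.325 (limma adjusted p = 0.204, or 0.00275 with the replicate block, under which it passed). ERBB3, the neuregulin receptor prominent in melanocytic cells, changed by -0.36 at 0.5 nM and -0.39 at 0.25 nM (limma adjusted p = 2.30e-08 and 1.52e-08), and FGFR3, at a mean level of 5.33, by -0.34 and -0.52 (limma adjusted p = 2.96e-05 and 2.58e-06). The largest rises were in ERBB4 (1.19 and 0.48, limma adjusted p = 7.60e-10 and 8.74e-09) and EPHA4 (0.42 and 0.34, limma adjusted p = 1.42e-08 and 3.73e-08), whose mean levels of 4.50 and 5.06 were below the median gene. Of the 48 receptors, 19 had signal above the median gene, and 3 of those were higher and 6 lower. The control SD was 0 for ERBB3, FGFR3, ERBB4 and EPHA4. With group means as units none of the 48 passed. There limma adjusted p was 0.459 for ERBB3, 0.892 for FGFR3, 0.599 for ERBB4 and 0.926 for EPHA4.

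**Figure D4:**
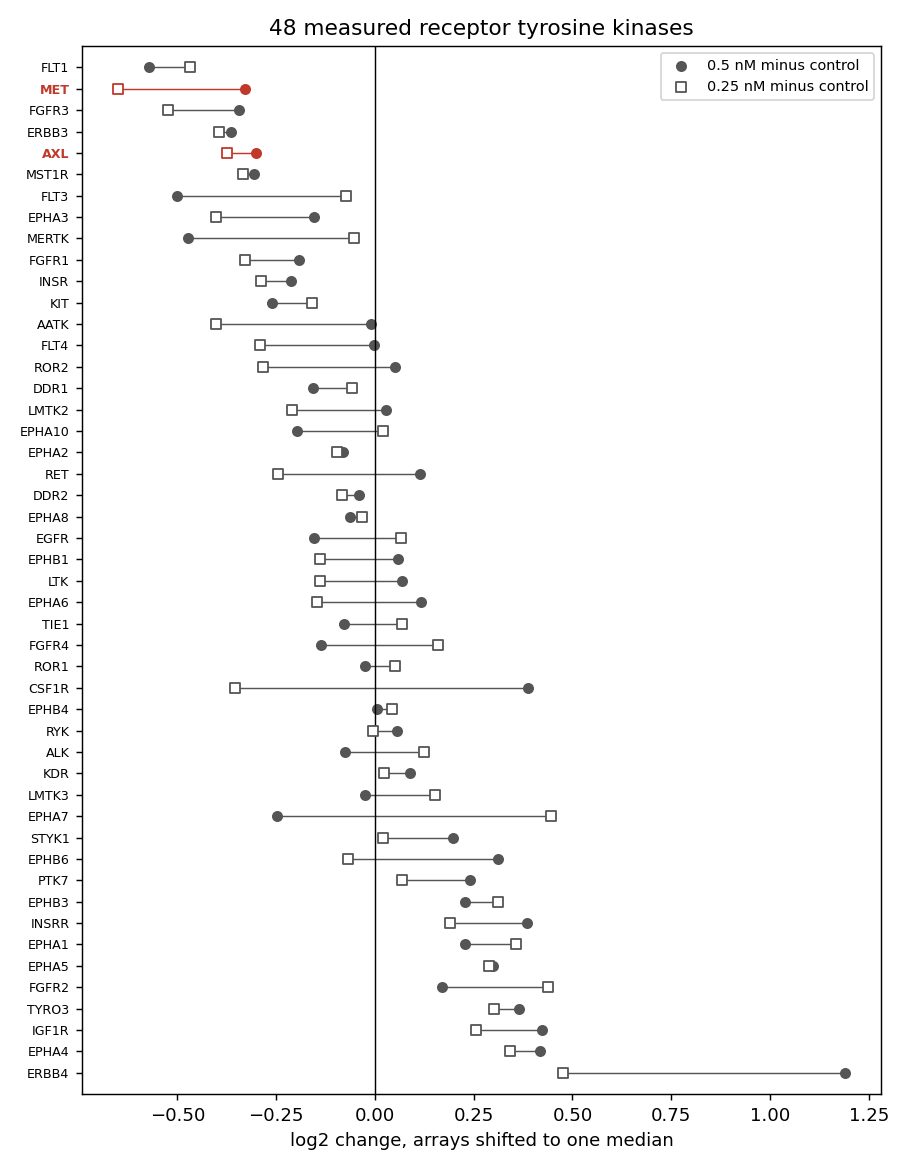
Log2 change of the 48 measured receptor tyrosine kinases at 0.5 nM (filled circles) and 0.25 nM (open squares) against the control microRNA, ordered by the mean of the doses, with MET and AXL in red. ERBB4 is at the high end at 1.19 and 0.48, and MET and AXL lie near the low end, at -0.33 and -0.65 for MET and at -0.30 and -0.38 for AXL.

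Among adaptors that bind the activated receptors, GRB2, which links them to Ras, changed by -0.15 at 0.5 nM and -0.19 at 0.25 nM (limma adjusted p = 0.000431 and 9.24e-05). SHC1, another adaptor, rose by 0.18 and 0.36 (limma adjusted p = 0.000248 and 4.23e-06). GAB1, the docking protein that MET engages directly, was 0.35 higher at 0.5 nM and -0.17 from control at 0.25 nM (limma adjusted p = 2.30e-05 and 0.00142). With no shift of arrays GAB1 lay at 0.21 for both doses (limma adjusted p = 0.000378), in place of 0.09 (0.0145). Of 9 measured adaptors and effectors 3 were higher and 1 lower for both doses, beside 31.8% and 32.1% of all genes. With no shift of arrays 7 were higher and 0 lower, beside 50.3% and 17.1% of all genes, and GRB2 lost its call at -0.05 (limma adjusted p = 0.0980). ADAM10, a sheddase of MET and AXL ectodomains, was the 1 lower gene among 4 measured for receptor down-regulation and shedding, at -0.15 at 0.5 nM and -0.37 at 0.25 nM (limma adjusted p = 0.00363 and 9.21e-05). Its replicate 3 at 0.25 nM was left out, so n = 2 there. With values of fewer than 10 digits kept, ADAM10 lay at -0.20 for both doses (limma adjusted p = 0.0267), in place of -0.26 (0.000172). With no shift of arrays 3 of the 4 were higher and ADAM10 still lower, beside 50.3% and 17.1% of all genes. ADAM17, the other sheddase, lay at -0.05 and 0.01 (limma adjusted p = 0.244 and 0.891). With group means as units no measured gene of either list passed. SPINT1, SPINT2 and CBL had no named row and were not analysed here.

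Known transcription factors of MET or AXL were lower in 7 of 10 measured cases and higher in 1, beside 32.1% and 31.8% of all genes, or lower in 4 and higher in 2 with no shift of arrays, beside 17.1% and 50.3%. Their median change was -0.16, beside -0.01 over all genes. MITF changed by -0.22 ± 0.0090 at 0.5 nM and by -0.17 ± 0.0090 at 0.25 nM (limma adjusted p = 4.84e-07 and 2.27e-06). With no shift of arrays MITF lay at only -0.07 for both doses (limma adjusted p = 1.08e-10), in place of -0.19. Its control SD was 0, so its SE is no full measure of the error. SP3, which binds GC boxes, changed by -0.48 and -0.43 (limma adjusted p = 1.74e-05 and 5.23e-05), and SP1, which binds the same boxes, by -0.34 and -0.14 (limma adjusted p = 4.33e-08 and 5.03e-06). The SP1 change at 0.25 nM was no larger in size than the 0.14 by which the median gene lay above control before the shift. For SP3, replicate 3 at 0.25 nM was left out, so n = 2 there. With values of fewer than 10 digits kept, SP3 lay at -0.37 for both doses (limma adjusted p = 0.0140), in place of -0.46 (1.34e-05). The AP-1 component FOS changed by -0.76 and -0.70 (limma adjusted p = 0.0103 and 0.0149). It was the 1 factor of the list that also passed with group means as units (limma adjusted p = 0.0450). The error in that fit comes from the difference between the doses, which for FOS was -0.06. JUN, the partner of FOS, lay at -0.54 and -0.70 (limma adjusted p = 0.0915 and 0.0384). FOSL1, a further AP-1 component, rose by 0.18 and 0.10 (limma adjusted p = 0.00367 and 0.0384).

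Genes that report MAP kinase output downstream of such receptors were mixed. DUSP6, the ERK phosphatase, rose by 0.16 at 0.5 nM and 0.26 at 0.25 nM (limma adjusted p = 2.41e-06 and 1.75e-07), and SPRY4, a feedback inhibitor, by 0.12 and 0.15 (limma adjusted p = 6.80e-05 and 3.17e-05). For SPRY4, replicate 3 at 0.25 nM was left out, so n = 2 there. With values of fewer than 10 digits kept, SPRY4 lay at 0.12 for both doses (limma adjusted p = 0.0213), in place of 0.14 (1.98e-05). ETV5, an ETS factor induced by ERK, changed by -0.82 and -0.44 (limma adjusted p = 1.31e-06 and 4.65e-05). Of 8 measured genes 3 were higher and 1 lower for both doses, beside 31.8% and 32.1% of all genes. With the replicate block 3 were higher and 3 lower, beside 32.9% and 34.0% of all genes, and ETV4 and CCND1 also passed at -0.14 and -0.09 (limma adjusted p = 0.0107 and 0.0102). None of the 8 passed with group means as units, where ETV5 had limma adjusted p = 0.0833.

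The genes whose pattern over the 9 arrays was most like MET, among 5957 others with complete values and signal above the median gene, were CCN3 (Pearson r = 0.971), TIMM13 (0.968), MARCKS (0.965), PMPCB (0.963) and SPIRE1 (0.961). After the mean of each replicate number was subtracted, so that replicate 1 no longer stood apart, they were CLCC1 (0.994), PRIMPOL, SCRN3, ASB9 and HSD17B4 (0.990). Most like AXL were SERINC2 (0.981), RSF1, AGTRAP, TRAPPC11 and TMEM67 (0.943). With replicate means subtracted they were ACSS2 (0.994), BCS1L, ARMC6, SERINC2 and SPICE1 (0.984), so SERINC2 was on both AXL lists. ASB9 lay at -0.25 at 0.5 nM and -0.53 at 0.25 nM, and SERINC2 at -0.17 and -0.18. These correlations are descriptions over arrays that share groups, replicate numbers and normalization.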

How the data were processed

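The authors deposited 1 table of log2 intensities (44629 rows, 9 arrays), made per the submitters' processing notes with oligo, affy and RMA. Neither tool versions nor a genome build are stated there. The platform annotation names 1 gene for 15835 rows, and the brightest row per symbol gave 14812 genes. In replicate 3 of 0.25 nM, 0 values have a zero as first decimal (4178 to 4774 in other columns), so its values of fewer than 10 digits were left out (19.1% of genes, neither MET nor AXL). Arrays were shifted to one median over genes with complete values. Tests used limma 3.58.1 in R 4.3.3 on 9 arrays with a mean per group, two-sided, with Benjamini-Hochberg adjustment over all genes and a threshold of 0.05. The code was checked on simulated data with independent noise on each array and no ties. That check cannot give the error rate for values that tie within groups, as these do. With 3 arrays a group, array number limits the precision.

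Same-numbered arrays deviated together from their group means over genes (9 pairs, r = 0.14 to 0.59), so the number was taken to pair arrays and the block is given where it changes a call. Arrays numbered 2 and 3 correlated about as well (0.16 to 0.36), and 4 of 9 arrays were closest to their own number. Genes named beside the pair are 14 chosen for their role (where measured), and per list up to 2 rises and 2 falls called alike at both doses. PLXNB1, CD44, NRP1, SP1, JUN, FLT1, ETV4 and CCND1 were added after their values were seen. The pair and the lists were chosen with earlier results of these data known.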

Additional observations from a re-analysis of the deposited data

Results flagged for a closer look

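The effects of the doses on MET differed by the test of that difference itself, 0.5 nM minus 0.25 nM, only when the replicate number entered as a block (0.32, limma adjusted p = 0.0171); MET was higher at 0.5 nM in 3 of 3 replicates, by 0.48, 0.37 and 0.11. With the block and no shift of arrays it was 0.25 (limma adjusted p = 0.0537). Without the block the same difference had limma adjusted p = 0.402. With the block 65.3% of all genes passed this comparison of the doses, so passing did not set MET apart from most genes. At 0.25 nM the 3 MET arrays held only 2 distinct deposited values, so the spread there can understate the error.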

How the results depend on the processing

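MET lay below control in every setting run for either dose and for both, and so did AXL. For both doses MET passed at -0.49 with the replicate block (limma adjusted p = 0.00201), at -0.37 with the block and no shift of arrays (0.0102) and at -0.48 with replicate 1 left out of every group (0.0120). Of 14812 genes, 9918, 10291 and 10681 passed for both doses in these settings, so most genes passed there too. At 0.25 nM the same settings gave MET -0.65, -0.49 and -0.60 (all past the threshold), and at 0.5 nM the block gave -0.33 and leaving out replicate 1 gave -0.36. Between doses MET passed at 0.32 with the block, as did 65.3% of all genes. With the block and no shift it did not pass at 0.5 nM (-0.24, limma adjusted p = 0.0608) or between doses (0.25, 0.0537), nor between doses with replicate 1 left out (0.24, 0.109). The AXL call for both doses was lost at -0.34 with group means as units, with short values kept and with genes under a level of 5 left out (limma adjusted p = 0.633, 0.0513 and 0.0518), at -0.22 with no shift, with or without the block, and at -0.30 with quantile normalization. AXL passed at 0.25 nM in the block (-0.38), with only both compared groups fitted (-0.38), over all rows (-0.42) and without replicate 1 (-0.45), and at 0.5 nM without replicate 1 (-0.47). The AXL difference between doses turned to -0.01 without replicate 1, to -0.09 without 0.5 nM replicate 1 and to 0 without 0.25 nM replicate 3. The causes were not tested.

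Leaving out each array in turn gave, for MET, -0.62 to -0.26 (both doses), -0.59 to -0.10 (0.5 nM), -0.83 to -0.42 (0.25 nM) and 0.05 to 0.52 (between doses), with 0 of 9 past the threshold in each. For AXL it gave -0.42 to -0.29 (2 of 9), -0.47 to -0.20 (1 of 9), -0.45 to -0.30 (3 of 9) and -0.09 to 0.18 (0 of 9). The differences under exact permutation ranged over -0.63 to -0.26 for MET and -0.41 to -0.30 for AXL, and for each only leaving out 0.5 nM replicate 1 passed (exact p = 0.0357 for both). That is the smallest p allowed when a mimic array is left out. When a control array is left out, the doubled p cannot reach 0.05.

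Over all genes, 9474 were called for both doses (4712 higher and 4762 lower, against 7456 and 2528 with no shift), 18 with group means as units, 6265 of 10751 with low genes left out, and 28448 of 44629 over all rows. Of 411 values for the other 23 named genes, all for both doses against control, 383 kept direction and side of the threshold. Their changes at single doses were not rerun in these settings. Of the 22 that lost their call, most came with group means as units, where FOS alone of these genes passed. The 4 that turned were ADAM17 at 0.10 with no shift (0.10 also with the block) and 0 after quantile normalization, and ST14 at 0 without replicate 1.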
